A study of Mus musculus with 16 samples.

Results

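The 10 genes described here are brakes on the cell cycle and 2 targets of p53. The brakes are 6 inhibitors of cyclin-dependent kinases (*Cdkn1a*, *Cdkn1b*, *Cdkn2a*, *Cdkn2b*, *Cdkn2c* and *Cdkn2d*) and the tumour suppressor genes *Trp53* and *Rb1*. The 2 targets of p53 are *Mdm2*, whose protein acts against p53, and *Ccng1*. All 10 were chosen by name from the 31274 genes of the expression table, with results of these data known. Of the 10, 9 passed the filter for testing (a group mean over 1 FPKM). *Cdkn2a* did not reach that level and is given as values only. RNA was sequenced from the seminal vesicles (SV) of male C57BL/6 mice at week 5 in 4 groups of 4 samples. WT-veh and WT-DES mice had an intact *Esr1*, the gene of oestrogen receptor α, and αERKO-veh and αERKO-DES mice carried a disrupted *Esr1*. DES (diethylstilbestrol, a synthetic oestrogen) in corn oil was injected subcutaneously each day from day 1 to day 5 of life, 2 µg for each pup, and vehicle (veh) mice received corn oil alone. By the methods for RNA extraction, the WT-DES group was 3 pools of mice and each other group 4 single mice, while the sequencing has 4 WT-DES samples. Whether all 4 WT-DES samples are independent is not clear from this, and every SD, SE and p-value below counts them as 4 and measures the spread between samples.

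Cyclin-dependent kinases, bound to their cyclins, drive cells from G1 into DNA synthesis, and 2 families of small proteins restrain them. The CIP/KIP proteins p21 (*Cdkn1a*) and p27 (*Cdkn1b*) bind cyclin-CDK complexes, and the INK4 proteins p16 (from *Cdkn2a*), p15 (*Cdkn2b*), p18 (*Cdkn2c*) and p19 (*Cdkn2d*) bind CDK4 and CDK6 and keep them from D-type cyclins. The Rb protein, which these kinases phosphorylate, holds E2F transcription factors in check. The p53 protein activates *Cdkn1a*, *Ccng1* and *Mdm2*, and the MDM2 protein in turn marks p53 for destruction.

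The members lie on 7 chromosomes of GRCm38 (GENCODE M21). *Cdkn2a* (chromosome 4, 89274471 to 89294653, minus strand) and *Cdkn2b* (chromosome 4, 89306299 to 89311039, minus strand) are neighbours, 11645 bases apart. *Cdkn1a* is on chromosome 17 from 29090976 to 29100727 (plus strand), and *Rb1* on chromosome 14 from 73183673 to 73325822 (minus strand). Promoters from RefSeq (GRCm38.p6, 250 bases before to 50 after a start site) were at hand for 12 start sites of 9 members, with none for *Rb1*. They were searched on both strands for motifs chosen after the promoters were seen. The 2 p53 targets below are shown because a p53 response element, as 2 adjoining copies of its repeat with at most 1 mismatch, was found in 2 of the 12 member promoters and in 0.0883% of all 32851 promoters. The matched bases are in capitals.

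*Cdkn1a*, chr17:29090928-29090947, plus strand, first base 51 before the start site: cagGAACATGTCTTGACATGTTCagc

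*Ccng1*, chr11:40755462-40755481, minus strand, first base 195 before the start site: gccAGACCTGCCCGGGCAAGCCTtgg

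The next sequences are from the neighbours *Cdkn2b* and *Cdkn2a*. The cyclic AMP response element TGACGTCA was found in 1.79% of all promoters, and an E2F site (TTTCCCGC, TTTGGCGC, TTTCGCGC or TTTGCCGC) in 2.26%.

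*Cdkn2b*, chr4:89311071-89311078, minus strand, first base 46 before the start site: gtctcaTGACGTCAccaagt

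*Cdkn2a*, chr4:89294711-89294718, minus strand, first base 99 before the start site: ggaagcTTTCCCGCgcgact

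The oestrogen response element (GGTCA and, after 3 bases, TGACC) was in 0 of the 12 member promoters and in 0.0700% of all promoters. Its shorter part GGTCA was found in a promoter of *Cdkn2a* and of *Cdkn2c* and in 40.5% of all promoters. These matches describe the letters of each window and say nothing of whether a factor was bound.

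Several features of the samples bear on what follows. *Esr1*, the check of the genotype, averaged 3.87 FPKM among WT-veh samples, 14.3 among WT-DES, 1.52 among αERKO-veh and 1.3 among αERKO-DES. With DES in WT, markers of several cell types moved: all 13 leukocyte markers were higher (summed FPKM 39.6 to 63.6 in WT-veh and 196 to 363 in WT-DES), as were 7 of 7 fibroblast markers (742 to 894 against 1958.1 to 2117.9) and 6 of 6 endothelial markers (88 to 107 against 161 to 254). Of the epithelial markers 6 of 7 were lower (1842.3 to 2067.5 against 922 to 1108.1), as were 9 of 9 tested SV secretory genes and 5 of 7 smooth muscle markers. Skeletal muscle markers summed to 744 to 796 in WT-veh samples 1 to 3, 2283.1 in WT-veh sample 4 and 45.8 to 357 in WT-DES. Of these 12 markers 3 were called lower, near the share of all genes, and 4 of 7 adipose markers were higher. Of all genes tested 28.9% were called higher and 23.9% lower. The total FPKM over all genes ran from 590446 to 652708 among WT-veh samples and from 375207 to 437619 among WT-DES samples. Their part in the results below was not tested, and in bulk tissue fewer cells of a type and less RNA per cell cannot be told apart. WT-DES sample 1 stood apart in smooth muscle markers, with a summed FPKM of 3730.9 against 833 to 1308.7 in the other WT-DES samples and 3066.7 to 3817.5 in WT-veh. It was also the highest or the lowest WT-DES sample for 8 of the 10 members. Some results, but not all that it changed, are therefore also given without it.

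In WT-DES relative to WT-veh, the comparison that asks what neonatal DES left behind at week 5, 3 of the 9 tested members rose by at least 1.5-fold with an adjusted p of at most 0.05: *Cdkn2b*, *Cdkn1a* and *Rb1*. No member fell by as much. The same thresholds were passed by 52.7% of all 15988 genes tested (28.9% higher and 23.9% lower). With rescaling to equal totals without the 20 most abundant genes 5 of 9 members were called, beside 54.2% of all genes. At any fold, 6 of 9 members passed (4 higher, 2 lower) against 73.8% of all genes (36.4% higher, 37.3% lower), and the samples of the 2 groups did not overlap for 6 of 9 members against 66.7% of all genes. The median log2 change of the 9 members was 0.27, beside −0.01 for all genes.

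*Cdkn1a*, the p53-induced inhibitor of CDK2 complexes, had an FPKM of 7.95, 6.87, 8.72 and 13.53 in the samples of WT-veh and of 31.37, 24.27, 16.2 and 21.81 in the samples of WT-DES. It was 8.03, 7.79, 13.27 and 9.06 in the samples of αERKO-veh and 9.43, 8.62, 9.11 and 5.77 in the samples of αERKO-DES. Every WT-DES sample lay above every sample of the other 3 groups, which overlapped each other. The mean rose from 9.27 ± 2.94 to 23.4 ± 6.29 (SD, n = 4) with DES in WT, a ratio of 2.53 and a log2 change of 1.25 on the scale of log2(FPKM + 1) (standard error (SE) 0.22, limma adjusted p = 0.000136). In αERKO the log2 change was −0.18 (SE 0.22, limma adjusted p = 0.642). The change in WT minus that in αERKO was 1.44 (SE 0.32, limma adjusted p = 0.000932), past thresholds that 56.4% of all genes passed. Without WT-DES sample 1, which was the highest, the log2 change in WT was 1.11.

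*Cdkn1b*, which encodes the p27 inhibitor of quiescent cells, was the most abundant CDK inhibitor in every group. Its FPKM was 47.02, 44.14, 42.37 and 34.77 in the samples of WT-veh, 41.66, 58.32, 52.34 and 52.19 in the samples of WT-DES, 61.0, 50.21, 41.36 and 53.01 in the samples of αERKO-veh and 50.5, 48.69, 50.35 and 56.83 in the samples of αERKO-DES. WT-DES sample 1 lay within the WT-veh range and the other 3 above it. The log2 change with DES in WT was 0.27 (SE 0.12, limma adjusted p = 0.0559), and without WT-DES sample 1 it was 0.37 (adjusted p = 0.0118), past the p threshold but under 1.5-fold. It was called with quantile normalization (0.7, adjusted p = 0.000648) and with rescaling to equal totals without the 20 most abundant genes (0.7, adjusted p = 0.000537). In αERKO it was 0.02 (SE 0.12, limma adjusted p = 0.955). The change in WT minus that in αERKO was 0.26 (SE 0.17, limma adjusted p = 0.195), so as deposited the genotypes were not separated. The WT-veh mean of 42.1 FPKM was the lowest of the groups, and the other means ran from 51.1 (WT-DES) to 51.6 (αERKO-DES).

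*Cdkn2b*, the INK4 gene best known as a target of TGF-β, had the largest ratio among the members. Its FPKM was 2.01, 2.09, 2.24 and 2.8 in the samples of WT-veh and 15.38, 8.62, 4.62 and 9.07 in the samples of WT-DES. It was 2.9, 2.48, 2.2 and 2.16 in the samples of αERKO-veh and 3.13, 2.62, 2.79 and 2.05 in the samples of αERKO-DES. The 4 WT-DES samples differed among themselves by more than 3-fold, and the lowest of them was above all 12 samples of the other groups, which ran from 2.01 to 3.13. The mean rose from 2.29 ± 0.356 to 9.42 ± 4.45 with DES in WT, a ratio of 4.12 and a log2 change of 1.57 (SE 0.23, limma adjusted p = 1.82e-05). Without WT-DES sample 1 the ratio was 3.25 and the log2 change 1.32. In αERKO the log2 change was 0.08 (SE 0.23, limma adjusted p = 0.858), and the difference between the genotypes was 1.49 (SE 0.32, limma adjusted p = 0.000782).

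*Cdkn2a*, the neighbour of *Cdkn2b*, encodes p16 and, from another first exon, the ARF protein that blocks MDM2. The table holds 1 value per gene, so the 2 products could not be told apart. Its FPKM was 0.29, 0.38, 0.49 and 0.68 in the samples of WT-veh, 0.64, 1.35, 0.59 and 0.35 in the samples of WT-DES, 0.81, 0.5, 0.5 and 0.73 in the samples of αERKO-veh and 0.95, 0.5, 0.6 and 0.32 in the samples of αERKO-DES. The groups overlapped, and only WT-DES sample 2 was above 1. How many fragments lie behind these values cannot be read from FPKM.

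*Cdkn2c* and *Cdkn2d*, the other INK4 genes, were the main source of INK4 RNA in the WT-veh SV. *Cdkn2c* FPKM was 25.19, 23.61, 26.99 and 27.24 in the samples of WT-veh, 12.56, 26.63, 21.04 and 28.61 in the samples of WT-DES, 27.72, 22.57, 17.74 and 21.36 in the samples of αERKO-veh and 24.54, 20.61, 20.89 and 21.5 in the samples of αERKO-DES. The groups overlapped. The log2 change with DES in WT was −0.26 (SE 0.19, limma adjusted p = 0.222), and without WT-DES sample 1, the lowest of the 16 samples, it was −0.03. With rescaling to equal totals without the 20 most abundant genes it was 0.15.

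*Cdkn2d* FPKM was 16.91, 13.8, 14.92 and 20.35 in the samples of WT-veh, 15.74, 18.39, 15.3 and 18.83 in the samples of WT-DES, 16.84, 13.27, 17.87 and 14.65 in the samples of αERKO-veh and 16.89, 12.19, 10.78 and 12.89 in the samples of αERKO-DES. The WT-veh and WT-DES samples overlapped, with a log2 change of 0.05 (SE 0.14, limma adjusted p = 0.728). Relative to WT-DES, the log2 difference of αERKO-DES was −0.36 (SE 0.14, limma adjusted p = 0.0285), under the 1.5-fold threshold and with overlapping samples. In αERKO the log2 change with DES was −0.24 (SE 0.14, limma adjusted p = 0.288). The change in WT minus that in αERKO was 0.3 (SE 0.2, limma adjusted p = 0.188).

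**Figure D1:**
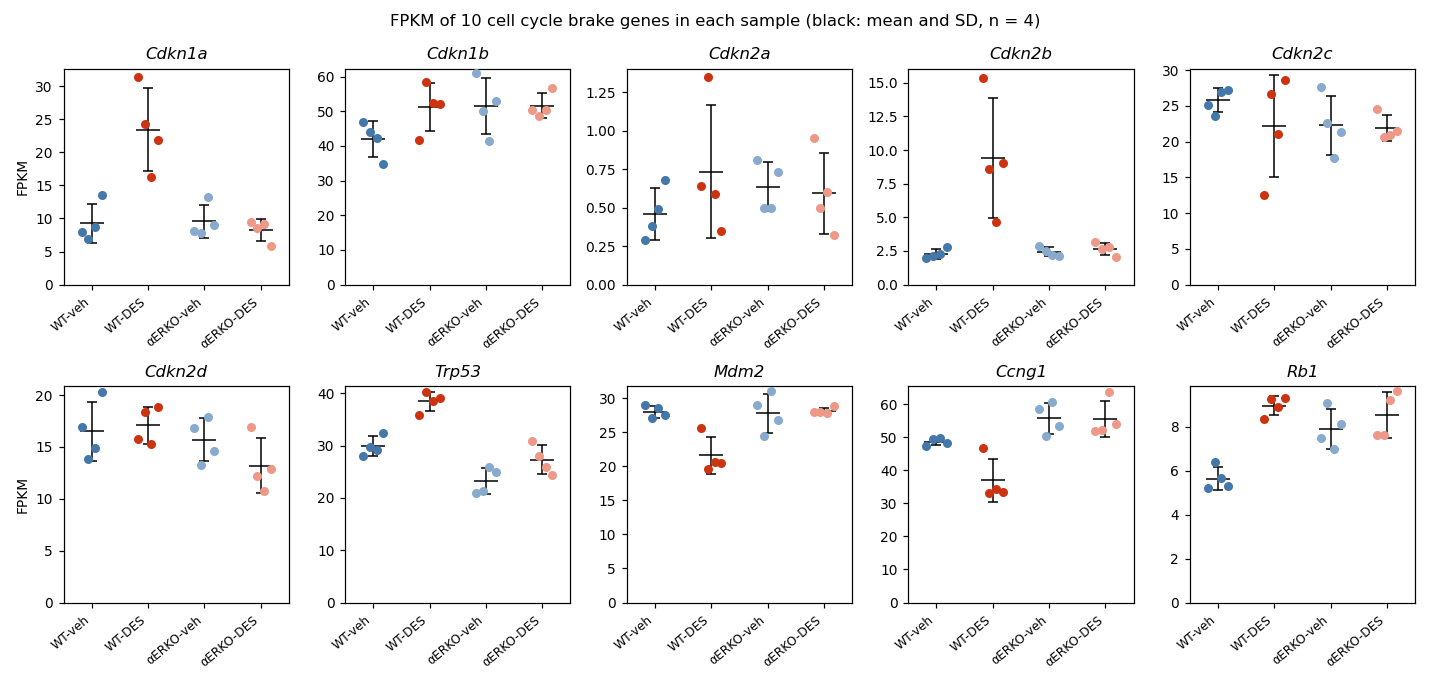
FPKM (linear axes from 0) of the 10 genes in each sample by group, with the mean and SD in black (n = 4). For *Cdkn1a* and *Cdkn2b* all 4 WT-DES samples sit above the other 12 samples, while for *Cdkn2c*, *Cdkn2d* and *Cdkn2a* the WT-veh and WT-DES samples overlap.

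Summed over each family, the CIP/KIP RNAs rose in every WT-DES sample and the INK4 RNAs changed in makeup. These sums were chosen after the values were seen, have no test, and include *Cdkn1c*, the p57 inhibitor, which is not a member. *Cdkn1a*, *Cdkn1b* and *Cdkn1c* together came to 60.7 ± 2.14 FPKM for WT-veh, 96.9 ± 6.91 for WT-DES, 67.8 ± 6.42 for αERKO-veh and 66.2 ± 1.92 for αERKO-DES (SD, n = 4). *Cdkn1b* gave 69.3% of that sum in WT-veh and 52.8% in WT-DES, and *Cdkn1a* 15.3% and 24.2%. The 4 INK4 genes together ran from 39.9 to 51.1 FPKM among WT-veh samples and from 41.5 to 56.9 among WT-DES samples, and *Cdkn2b* gave 5.08% and 19.1% of their sum. WT-DES sample 1 weighs on the 19.1%, with *Cdkn2b* at 15.38 and *Cdkn2c* at 12.56 FPKM of an INK4 sum of 44.3. In WT-DES samples 2, 3 and 4 *Cdkn2b* was 8.62, 4.62 and 9.07 of sums of 55.0, 41.5 and 56.9.

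**Figure D2:**
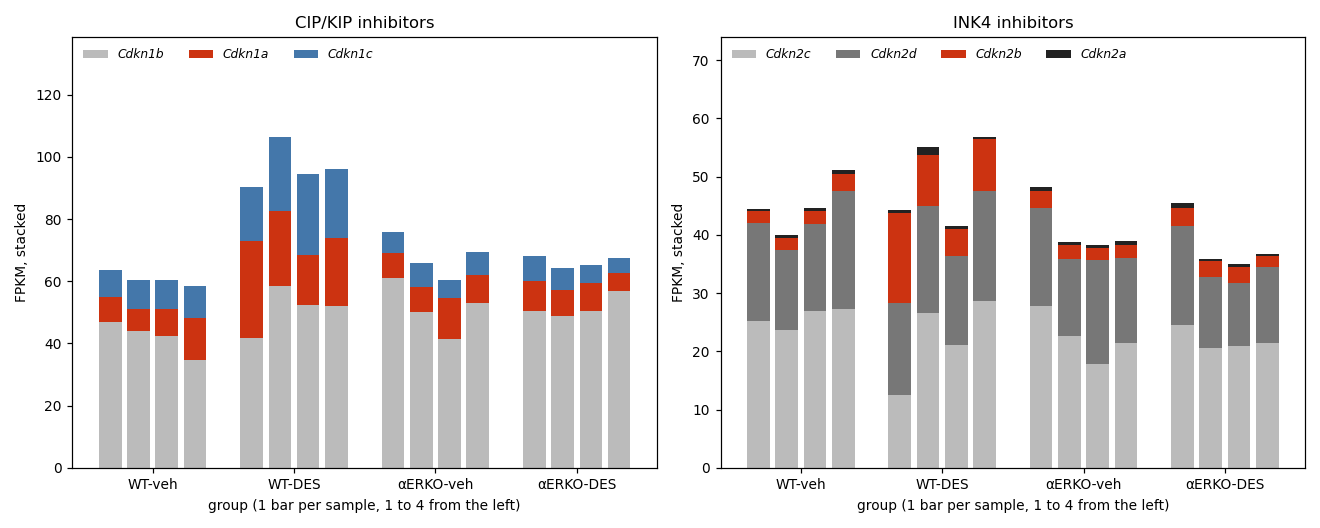
Stacked FPKM of the CIP/KIP genes (left, with *Cdkn1c*) and the INK4 genes (right), 1 bar per sample. WT-DES bars reach 90.2 to 107 for CIP/KIP against 58.5 to 63.6 in WT-veh, and the *Cdkn2b* part of the INK4 bars is widest in WT-DES.

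*Rb1*, the pocket protein downstream of the INK4 inhibitors, was lowest in WT-veh. Its FPKM was 5.23, 6.39, 5.68 and 5.29 there, 8.37, 9.26, 8.9 and 9.32 in the samples of WT-DES, 7.49, 9.09, 7.0 and 8.12 in the samples of αERKO-veh and 7.64, 7.64, 9.24 and 9.62 in the samples of αERKO-DES. All 12 samples of the other groups, which overlapped each other, were above all 4 WT-veh samples. With DES in WT the mean rose 1.59-fold, with a log2 change of 0.59 (SE 0.09, limma adjusted p = 4.47e-05). It was also higher in αERKO-veh than in WT-veh, with a log2 difference of 0.42 (SE 0.09, limma adjusted p = 0.00915), under the 1.5-fold threshold. In αERKO the log2 change with DES was 0.09 (SE 0.09, limma adjusted p = 0.553), and the change in WT minus that in αERKO was 0.49 (SE 0.13, limma adjusted p = 0.0038), under 1.5-fold. That difference was 0.19 with quantile normalization (adjusted p = 0.182) and 0.99 with rescaling.

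The *Rb1* locus overlaps genes on the opposite strand, and whether the counting used strand is not given in the sources used here, so reads of these genes may not be told apart. Mean FPKM of *Lpar6*, which lies inside *Rb1*, was 15.88 for WT-veh, 25.66 for WT-DES, 16.78 for αERKO-veh and 18.26 for αERKO-DES. *Rcbtb2*, which overlaps the end of the locus, had 13.66, 23.28, 11.65 and 11.54 in the same order. Both means were highest in WT-DES, as that of *Rb1* was. In both αERKO groups the means of *Rb1* and *Lpar6* were above that in WT-veh, and the mean of *Rcbtb2* was below it. The part of these genes in the *Rb1* values was not tested. The 1.5-fold call of *Rb1* in WT was lost with quantile normalization and with corrections for transcript GC content or length, while its adjusted p remained under the threshold.

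*Trp53*, the gene of p53, had its highest samples in WT-DES and, as deposited, its lowest 2 in αERKO-veh. Its FPKM was 27.95, 29.81, 29.15 and 32.52 in the samples of WT-veh and 35.9, 40.29, 38.53 and 39.17 in the samples of WT-DES. It was 21.04, 21.34, 25.99 and 24.95 in the samples of αERKO-veh and 30.82, 27.96, 25.87 and 24.48 in the samples of αERKO-DES. The WT-DES samples were above and the αERKO-veh samples below every WT-veh sample, while αERKO-DES overlapped both vehicle groups. The log2 change with DES in WT was 0.36 (SE 0.08, limma adjusted p = 0.00128), a ratio of 1.29. The log2 difference of αERKO-veh from WT-veh was −0.35 (SE 0.08, limma adjusted p = 0.0114), and with rescaling it was −0.17 (adjusted p = 0.152), no longer past the threshold. In αERKO the log2 change with DES was 0.22 (SE 0.08, limma adjusted p = 0.13), and its difference from that in WT was 0.14 (SE 0.12, limma adjusted p = 0.303). All of these were under 1.5-fold. With quantile normalization and with rescaling the log2 change in WT was 0.67 and 0.78, past the call thresholds in both, and its difference from that in αERKO was 0.52 and 0.69.

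The 2 p53 targets *Mdm2* and *Ccng1* were not called higher with DES in WT, unlike *Cdkn1a*. Within groups, WT-DES sample 1 and αERKO-veh sample 3 were the highest of their group for each of these genes. In WT-veh and αERKO-DES the highest sample differed between the genes. *Mdm2*, the ubiquitin ligase for p53, had an FPKM of 28.98, 27.06, 28.58 and 27.54 in the samples of WT-veh, 25.67, 19.59, 20.7 and 20.44 in the samples of WT-DES, 29.01, 24.47, 31.12 and 26.74 in the samples of αERKO-veh and 27.95, 28.04, 27.85 and 28.82 in the samples of αERKO-DES. Every WT-DES sample was below every WT-veh sample. The log2 change was −0.37 (SE 0.08, limma adjusted p = 0.00083), a ratio of 0.77, and it was 0.05 with rescaling to equal totals without the 20 most abundant genes. In αERKO it was 0.02 (SE 0.08, limma adjusted p = 0.9), and WT minus αERKO gave −0.39 (SE 0.12, limma adjusted p = 0.00717), which became 0.15 with that rescaling.

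*Ccng1*, which encodes cyclin G1, had the highest mean of the members in WT-veh and in both αERKO groups. Its FPKM was 47.46, 49.35, 49.64 and 48.13 in the samples of WT-veh, 46.65, 33.05, 34.25 and 33.54 in the samples of WT-DES, 58.43, 50.33, 60.65 and 53.52 in the samples of αERKO-veh and 51.96, 52.2, 63.67 and 54.02 in the samples of αERKO-DES. WT-DES sample 1 was close to the WT-veh range, and the other 3 WT-DES samples were well below it. The log2 change with DES in WT was −0.4 (SE 0.1, limma adjusted p = 0.00215), −0.52 without WT-DES sample 1, and 0.02 with the same rescaling, so the direction depends on the scaling. That rescaling moved the median log2 change of all genes from −0.01 to 0.378. Quantile normalization gave −0.22 for *Mdm2* and −0.06 for *Ccng1*, beside a median of −0.08 for all genes.

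**Figure D3:**
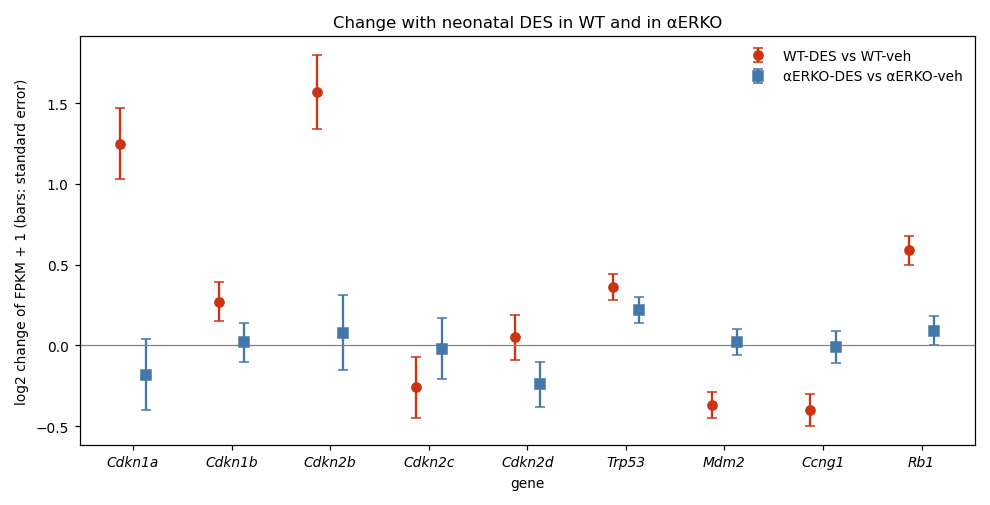
Log2 change of FPKM + 1 with DES (vertical axis) for the 9 tested genes in WT (circles) and in αERKO (squares), with standard errors. In WT the changes run from −0.4 (*Ccng1*) to 1.57 (*Cdkn2b*), and in αERKO from −0.24 (*Cdkn2d*) to 0.22 (*Trp53*). *Mdm2* and *Ccng1* turn to 0.05 and 0.02 in WT with rescaling to equal totals without the 20 most abundant genes.

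In WT-veh the levels, compared per length as FPKM, were ordered *Ccng1* (mean 48.6), *Cdkn1b* (42.1), *Trp53* (29.9), *Mdm2* (28.0), *Cdkn2c* (25.8), *Cdkn2d* (16.5), *Cdkn1a* (9.27), *Rb1* (5.65), *Cdkn2b* (2.29) and *Cdkn2a* (0.46). The samples of neighbours in that order overlapped only for *Trp53* with *Mdm2* and for *Mdm2* with *Cdkn2c*. In WT-DES *Cdkn1a* had moved from rank 7 to rank 4 and *Cdkn2b* from 9 to 8, where *Cdkn1a* overlapped the next gene down, *Cdkn2c*, and *Cdkn2b* overlapped both neighbours, *Cdkn2d* and *Rb1*. *Cdkn1a* in the αERKO groups (veh, then DES) was at ranks 7 and 8 and *Cdkn2b* at 9.

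The genes whose log2(FPKM + 1) followed the 2 inhibitors most closely were found among 12455 genes with a mean FPKM of at least 5 in a group. For *Cdkn1a* these were *Haus8* (Pearson r = 0.96 over the 16 samples), *Txnrd1* (0.957) and *Tmprss4* (0.949). For *Cdkn2b* they were *Glud1* (0.975), *Slc16a12* (0.974) and *Sftpd* (0.972). The 16 samples share 4 groups, 1 of which lies apart, so these values describe a shared rise in WT-DES and the spread within it.

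The comparisons without the WT-DES group held few calls among the members. In αERKO-veh relative to WT-veh, which asks what loss of ERα alone did, 0 of 9 members were called by limma, against 7.12% of all genes, and 3 (*Cdkn1b*, *Rb1* and *Trp53*) had an unadjusted p under 0.05, as did 38.9% of all genes. The number of all genes called was 1139, and became 418 without αERKO-veh sample 2 and 715 without WT-veh sample 3. Skeletal muscle markers summed to 781 FPKM in αERKO-veh sample 1 and 1701.3 to 2691.9 in the others of that group. In WT-veh they summed to 2283.1 in sample 4 and 744 to 796 in the others. WT-veh sample 4 was also the highest WT-veh sample for 6 members. By limma 5 of the 12 were called higher in αERKO-veh, with a median log2 difference of 2.23 over the list, and their part in the *Rb1* and *Trp53* differences was not tested. Of the 9 members, 0 were called with DES in αERKO, against 1.49% of all genes, and *Trp53* alone had an unadjusted p under 0.05, as did 25.3% of all genes. That background of 239 genes was unstable: it ran from 1 gene without αERKO-veh sample 4 to 653 without αERKO-veh sample 1, and leaving out any 1 of 12 of the 16 samples moved it more than 1.5-fold. The exceptions were WT-DES sample 2, WT-veh sample 4, αERKO-veh sample 3 and αERKO-DES sample 4. Adipose markers were lower with DES in αERKO for 5 of 7 (summed FPKM 90.3 to 1095.3 among αERKO-veh samples, 17.2 to 62.5 among αERKO-DES samples), as were 7 of 12 skeletal muscle markers (599 to 863 among αERKO-DES samples). In αERKO-DES relative to WT-veh *Rb1* was called, with a ratio of 1.51 and a log2 difference of 0.52 (SE 0.09, limma adjusted p = 0.00593), against 3.18% of all genes. Those 508 genes became 259 and 217 without WT-veh samples 3 and 4, and 883, 199 and 206 without αERKO-DES samples 1, 3 and 4. In that comparison 6 of 7 adipose markers (223 to 1113.8 among WT-veh samples) and 3 of 7 fibroblast markers (505 to 606 against 742 to 894) were lower. The part of these markers in the differences and in those between genotypes was not tested. The *Rb1* call was lost without any 1 of WT-veh samples 1 or 4 or αERKO-DES samples 3 or 4.

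In αERKO-DES relative to WT-DES 3 of 9 members were called, against 53.4% of all genes. This comparison shares its samples with those above. *Cdkn1a* was lower, with a log2 difference of −1.39 (limma adjusted p = 4.99e-05), and so was *Cdkn2b*, with −1.42 (limma adjusted p = 4.43e-05). *Ccng1* was higher, with 0.59 (limma adjusted p = 9.37e-05) and a ratio of 1.5 at the threshold. Its call was lost without any 1 of WT-DES samples 2, 3 or 4 or αERKO-DES sample 3. The log2 differences of *Mdm2* (0.38, limma adjusted p = 0.000695) and *Trp53* (−0.48, limma adjusted p = 8.66e-05) were under 1.5-fold. With quantile normalization and with rescaling *Trp53* was called (−0.8 and −0.86) and *Ccng1* was not (0.23 and 0.21), and with rescaling *Mdm2* was 0.01 (adjusted p = 0.936).

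Other p53 targets, a list of 32 genes besides the members, went both ways with DES in WT. Of the 32, 9 were higher and 4 lower, beside 28.9% and 23.9% of all genes, and the median log2 change was 0.21 against −0.01 for all genes. *Pmaip1*, which encodes the pro-apoptotic protein NOXA, had an FPKM of 0.63, 0.47, 0.74 and 0.53 in the samples of WT-veh and 9.87, 10.86, 5.43 and 7.76 in the samples of WT-DES, with a log2 change of 2.54 (SE 0.17, limma adjusted p = 8.35e-09). The ratio of its means was 14.3, the largest in the list, and in αERKO-veh and αERKO-DES its means were 0.873 and 0.58. *Eda2r*, a receptor of the TNF receptor family, rose from a mean of 1.49 to 5.31, and *Plk3*, a polo-like kinase, from 2.59 to 7.21 (12.15 in WT-DES sample 1 and 5.06 to 6.26 in the others).

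The 4 p53 targets that fell had WT-veh means of 119 FPKM or more. *Rps27l*, a ribosomal protein S27-like gene, had an FPKM of 224.2, 212.27, 257.62 and 254.64 in the samples of WT-veh and 70.61, 51.89, 68.92 and 67.56 in the samples of WT-DES, a log2 change of −1.86 (SE 0.16, limma adjusted p = 1.21e-07). *Ddit4*, an inhibitor of mTORC1, fell, with 101.74 to 137.45 FPKM among WT-veh samples and 32.24 to 39.56 among WT-DES samples. *Dcxr*, a carbonyl reductase, fell from a mean of 142 to 69.1. *Bax*, the pro-apoptotic BCL2 relative, fell from 119 to 73.4 (log2 change −0.69, limma adjusted p = 0.000176), and was not called with quantile normalization or with rescaling. The call of *Dcxr* was lost with quantile normalization. Without WT-DES sample 1, 10 of the 32 were higher and 7 lower, when 4683 and 3986 of 15983 genes were called so. With rescaling 18 of the 32 were higher and 3 lower, beside 42.9% and 11.3% of all genes, and with quantile normalization 10 and 5, when 3671 and 3935 of 15717 genes were called so. In the difference between the genotypes 10 of the 32 were higher in WT and 7 lower, beside 29.6% and 26.9% of all genes. With rescaling that split was 18 and 2, when 7288 and 1963 of 16198 genes were called so. In αERKO 0 of the 32 were called with DES by limma, and 5 had an unadjusted p under 0.05, beside 1.49% and 25.3% of all genes.

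**Figure D4:**
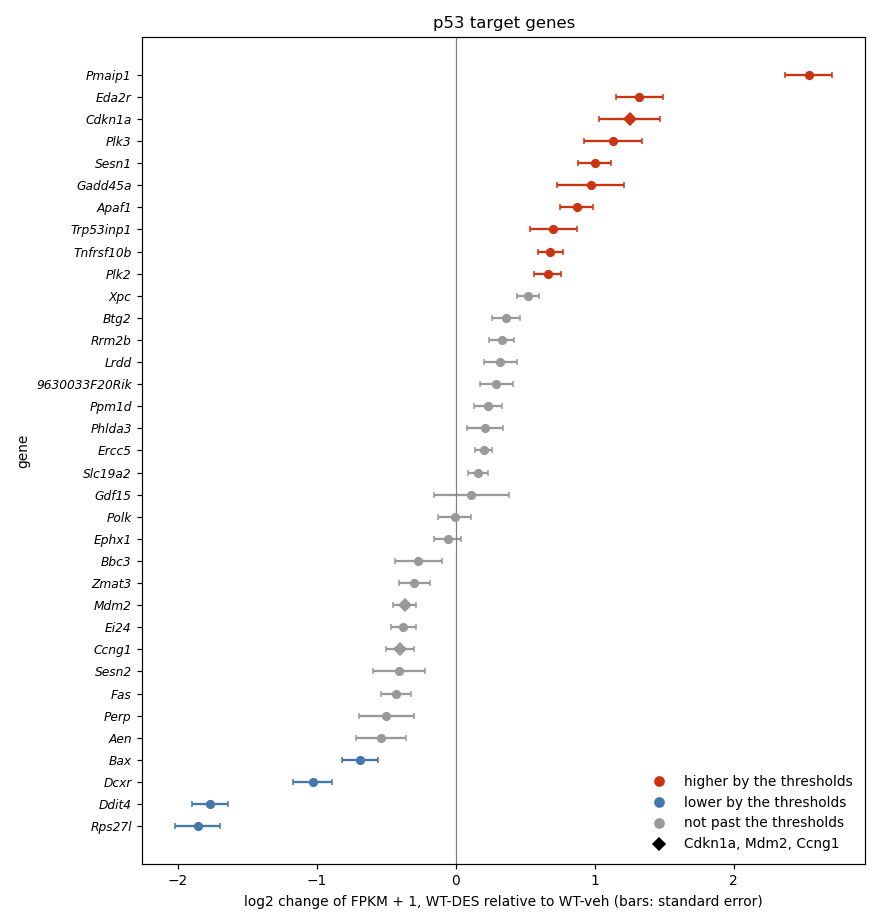
Log2 change of FPKM + 1 with standard error (horizontal axis) in WT-DES relative to WT-veh for 32 p53 targets (circles) and for *Cdkn1a*, *Mdm2* and *Ccng1* (diamonds), ordered by size. The changes run from −1.86 (*Rps27l*) to 2.54 (*Pmaip1*), with *Cdkn1a* at 1.25 near the top and *Mdm2* and *Ccng1* below 0, where they are 0.05 and 0.02 with rescaling to equal totals without the 20 most abundant genes.

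Of 17 tested regulators of p53 besides the members, 3 were higher and 2 lower with DES in WT, beside 28.9% and 23.9% of all genes. *Mdm4*, which binds and inhibits p53, had an FPKM of 11.79, 14.74, 11.48 and 6.9 in the samples of WT-veh and 22.29, 26.9, 26.09 and 25.07 in the samples of WT-DES, a log2 change of 1.13 (SE 0.22, limma adjusted p = 0.000311). It was also higher in αERKO-veh than in WT-veh, with a mean of 20.4 (log2 difference 0.84, limma adjusted p = 0.0164), a call lost without WT-veh sample 4 or without αERKO-veh sample 2. *Trp63*, a p53 relative of basal epithelial cells, rose from 11.1 to 23.7 (33.3 in WT-DES sample 1 and 19.07 to 21.68 in the others), and *Hipk2*, a kinase of p53, from 2.24 to 5.77. *Hipk2* was also called higher in αERKO-veh than in WT-veh, with a mean of 4.49 and overlapping samples (log2 difference 0.72, limma adjusted p = 0.0339), a call lost without any 1 of WT-veh samples 1, 3 or 4 or αERKO-veh samples 2, 3 or 4 (adjusted p up to 0.123). The checkpoint kinase gene *Chek2* fell from 16.8 to 8.83 and the ubiquitin ligase gene *Rchy1* from 45.4 to 28.8, and both calls were lost with rescaling, that of *Rchy1* also with quantile normalization (−0.35). With rescaling 8 were higher and 0 lower, beside 42.9% and 11.3% of all genes.

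Among 13 cyclins, CDKs and genes that regulate them, a list that also holds the inhibitor gene *Cdkn1c*, 3 were higher and 3 lower with DES in WT by the same thresholds, 46.2% of the list beside 52.7% of all genes. With rescaling 7 were higher and 3 lower, beside 42.9% and 11.3% of all genes. With quantile normalization 2 were higher and 4 lower, when 3671 and 3935 of 15717 genes were called so. Of the 3 D-type cyclin genes, *Ccnd1* and *Ccnd2* moved in opposite directions and *Ccnd3* was not called (log2 change −0.08, limma adjusted p = 0.527). *Ccnd1* fell from a mean of 174 to 69.3 (log2 change −1.33, SE 0.11, limma adjusted p = 7.13e-08), and *Ccnd2* rose from 15.4 to 37.3 (log2 change 1.23, SE 0.13, limma adjusted p = 7.13e-07). *Ccnd1* FPKM was 157.86, 185.98, 169.18 and 184.31 in the samples of WT-veh and 72.36, 55.45, 79.95 and 69.45 in the samples of WT-DES, with means of 209 in αERKO-veh and 238 in αERKO-DES. Both directions were the same under the 3 other scalings.

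Of the kinases the INK4 proteins bind, *Cdk6* rose from 1.51 to 3.28 (log2 change 0.77, limma adjusted p = 0.000611), a call lost with quantile normalization. *Cdk4*, which was far more abundant, had means of 152 and 106 (log2 change −0.52, limma adjusted p = 1.97e-05), under 1.5-fold. Its log2 change was 0.15 with quantile normalization and −0.09 with rescaling (limma adjusted p = 0.179). *Cdkn1c* had an FPKM of 8.65, 9.31, 9.35 and 10.15 in the samples of WT-veh and 17.22, 23.96, 25.99 and 22.24 in the samples of WT-DES, a log2 change of 1.16 (SE 0.14, limma adjusted p = 3.35e-06). *Cks1b*, which helps the SCF ligase degrade p27, fell from 84.3 to 29.1, and *Cdc25a*, a phosphatase that activates CDKs, from 22.3 to 9.38.

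Besides the member *Rb1*, which was called higher, 11 genes of the Rb and E2F families were tested. Of these 11, 0 were called by limma with DES in WT, against 52.7% of all genes. At any fold 7 passed the adjusted p (7 also had an unadjusted p under 0.05), 2 of them higher and 5 lower, against 73.8% of all genes. *Rbl1* (p107) had means of 4.88 and 6.91 (log2 change 0.42, limma adjusted p = 0.00186) and *Rbl2* (p130) of 15.7 and 20.5 (log2 change 0.36, limma adjusted p = 0.00442), both under 1.5-fold. With rescaling both were called higher (0.79 and 0.77 on the log2 scale), and with quantile normalization *Rbl1* was 0.09 (adjusted p = 0.486). The 5 lower ones were *E2f4*, *E2f5*, *Tfdp1*, *E2f2* and *Tfdp2*, with log2 changes of −0.49, −0.45, −0.42, −0.41 and −0.4, and were chosen for naming after their values were seen. With rescaling these changes ran from −0.07 to 0.01 (limma adjusted p from 0.471 to 0.94). Without WT-DES sample 1, 2 genes of the list were called, when 8669 of 15983 genes were. Without sample 3, 1 gene was called, when 8316 of 15974 genes were. With rescaling 5 of 12 were called, all higher and with *E2f7* among them, beside 42.9% of all genes. With quantile normalization 1 was called, *E2f2*, which was lower, when 3671 of 15717 genes were called higher and 3935 lower.

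Of 11 regulators of the INK4 locus, 2 were higher and 2 lower with DES in WT, beside 28.9% and 23.9% of all genes, and with rescaling 5 were higher and 0 lower, beside 42.9% and 11.3%. *Ets1* and *Ets2*, whose proteins can activate *Cdkn2a*, rose from means of 6.31 to 21.4 and of 26.4 to 49.0. The Polycomb gene *Cbx8* fell from 15.7 to 9.31, and *Id1*, an antagonist of ETS factors, from 255 to 154 with overlapping samples. The calls of *Cbx8* and *Id1* were lost with rescaling (−0.29 on the log2 scale for both), and *Id1* turned to 0.04 with quantile normalization. The Polycomb genes *Bmi1* (means 8.53 and 10.3) and *Ezh2* (9.75 and 11.0) were not called, although *Bmi1* passed the adjusted p (0.00589), and with rescaling both were called higher (0.65 and 0.56 on the log2 scale).

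Of 24 genes of DNA synthesis and mitosis, 4 were higher and 1 lower with DES in WT, beside 28.9% and 23.9% of all genes. *Mki67*, which marks dividing cells, had an FPKM of 6.09, 5.44, 5.88 and 6.59 in the samples of WT-veh and 5.22, 11.44, 10.33 and 10.98 in the samples of WT-DES, a log2 change of 0.53 (SE 0.21, limma adjusted p = 0.0344) and of 0.77 without WT-DES sample 1, and the call was lost with quantile normalization (0.31, adjusted p = 0.244). WT-DES sample 1 was below all 4 WT-veh samples and the other 3 were above them. *Mki67* was also called higher in αERKO-veh than in WT-veh, without DES, at 8.07 to 14.13 FPKM (log2 difference 0.62, limma adjusted p = 0.0437), a call lost in 9 of the 16 fits that left out 1 sample, among them each WT-veh sample and αERKO-veh samples 2, 3 and 4 (adjusted p up to 0.127). *Bub1b*, of the spindle checkpoint, rose from 3.43 to 7.06, the replication genes *Mcm3* from 7.2 to 12.1 and *Mcm4* from 7.27 to 11.9, and *Rrm2*, a subunit of ribonucleotide reductase, fell by 0.58 on the log2 scale, a call lost without WT-DES sample 1 and with rescaling (−0.19). The call of *Mcm4* was lost with quantile normalization (0.48). With quantile normalization the split was 2 higher and 5 lower, when 48.3% of all calls were higher. With rescaling it was 13 higher and 0 lower, when 79.2% of all calls were higher. The median of the list minus that of all genes was 0.2 both as deposited and with rescaling, and −0.05 with quantile normalization. In αERKO 0 of the 24 were called with DES by limma, and 0 had an unadjusted p under 0.05, beside 1.49% and 25.3% of all genes.

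**Figure D5:**
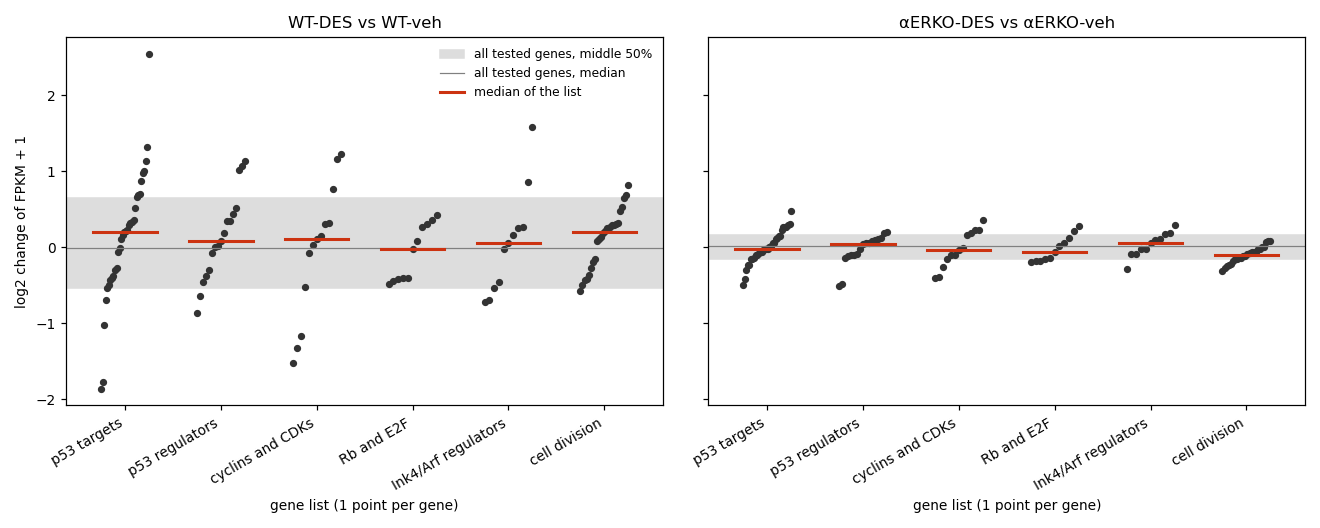
Log2 change of FPKM + 1 with DES (vertical axis) for each gene of 6 lists, in WT (left) and in αERKO (right), with the median of each list in red and the middle 50% of all tested genes in grey. In WT the list medians lie between −0.02 and 0.21 and single genes reach −1.86 and 2.54, while in αERKO the list medians lie between −0.1 and 0.05.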

How the data were processed

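The authors sequenced total RNA of 16 SV samples as paired ends on an Illumina HiSeq, aligned the reads to mm10 with TopHat 2.0.4 and deposited FPKM per gene from Cufflinks 2.0.2. The gene annotation, the use of strand and any scaling between libraries are not given in the sources used here. Depth cannot be read from FPKM, and the precision of a value rests on 4 samples per group.

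Values were analysed as log2(FPKM + 1) with limma 3.58.1 (R 4.3.3) in a single model over all 16 samples, with group means and a variance trend. Benjamini-Hochberg adjustment ran over the 15988 genes whose FPKM averaged over 1 in any group, also for differences between genotypes. A gene was called at an adjusted p ≤ 0.05 with means differing at least 1.5-fold (for the difference between genotypes, 1.5-fold on the log2 scale). Steps were tested on simulated data. Alternatives were other pseudocounts, minimums, thresholds, models and scalings, corrections for transcript length and GC content, a replicate block and leaving out each sample.

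The members, gene lists and tests were chosen with earlier results of these data known. All members are named. From each list the 3 called genes with the largest rises and the 3 with the largest falls in WT (mean FPKM of at least 5) are named, with *Mdm4*, *Cdkn1c*, *Bax*, *Cdk4*, *Cdk6*, *Ccnd1*, *Rbl1*, *Rbl2*, *Bmi1*, *Ezh2*, *Trp63* and *Mki67*. *Lpar6* and *Rcbtb2* were chosen after their values were seen. Of the p53 targets, 1 (*Pidd1*) was matched by an older symbol added after the table was seen. Coordinates are from GENCODE M21. Tables and plots came from pandas 2.3.3, numpy 2.4.6 and matplotlib 3.10.9 under Python 3.11.15.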

Additional observations from a re-analysis of the deposited data

Results flagged for a closer look

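*Ccng1* in WT-DES had 1 sample far from the others. WT-DES sample 1 had an FPKM of 46.65 and the other 3 samples 33.05 to 34.25, and on the scale of log2(FPKM + 1) the gap to the nearest sample was 0.897 of the range of the group, above the 95% critical value of Dixon's ratio for 4 samples. This was 1 of 40 groups examined (10 genes in 4 groups), of which chance would mark about 2.

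The change with DES differed between the genotypes by at least 1.5-fold for 2 members in limma's test of the difference. For *Cdkn1a* the log2 change in WT was higher than that in αERKO by 1.44 (adjusted p = 0.000932), and for *Cdkn2b* by 1.49 (adjusted p = 0.000782). In both genes 4 of 4 WT-DES samples were above every WT-veh sample, while the αERKO-DES and αERKO-veh samples overlapped. The same threshold was passed by 56.4% of all genes.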

How the results depend on the processing

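The log2 changes of *Cdkn1a* (1.11 to 1.66) and *Cdkn2b* (1.27 to 2.0) with DES in WT kept their direction and their side of the threshold in all 30 alternatives. The number of members called with DES in WT was 3 and remained 3 (3 to 3) when any 1 sample was left out, became 5 with rescaling to equal totals without the 20 most abundant genes (with *Cdkn1b* and *Trp53*) and 6 at any fold, and was 4 with quantile normalization (*Cdkn1b* and *Trp53* gained, *Rb1* lost) and 2 with the GC correction (*Rb1* lost). With the length correction it was 3 of 10, with *Rb1* lost and *Cdkn2a* gained. In αERKO-veh relative to WT-veh the number rose from 0 to 1 with rescaling and 2 at any fold. In αERKO-DES relative to WT-veh it was 0 with quantile normalization and with corrections for transcript length or GC content, and 0 to 1 when 1 sample was left out. In αERKO-DES relative to WT-DES it was 6 at any fold and 2 to 3 with 1 sample left out. In the difference between genotypes it was 6 with rescaling, 5 at any fold, 4 with the length correction (with *Cdkn2a* and *Cdkn2d*) and 2 to 2 with 1 sample left out. Directions reversed with rescaling for *Cdkn2c* (0.15), *Mdm2* (0.05) and *Ccng1* (0.02) in WT and for *Mdm2* (0.15) and *Ccng1* (0.16, and 0.08 with quantile normalization) in the difference between genotypes, and for *Cdkn2d* in WT (−0.02) without WT-veh sample 2. Rescaling moved the median log2 change of all genes to 0.378 in WT and 0.508 in the difference between genotypes, and 79.2% of calls in WT were then higher against 54.7%. The cause was not tested. Samples with the same number did not deviate together (24 pairs, r −0.215 to 0.277, median −0.0155, 3 over 0.1), and no sample numbers are said to mark animals shared between groups. A replicate block left 3 members called in WT and changed the number in no comparison. The limits are 4 samples per group, unknown depth and FPKM at 2 decimals, which bears most on *Cdkn2a* and *Cdkn2b*.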
